A study of Mus musculus with 2 samples.

Results

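The collagen and laminin genes of the mouse lateral hypothalamic area are described here across fibroblast-like, mural-like and endothelial-like cells, glia and neurons. Members were all gene symbols of the deposited tables that match a collagen alpha chain (Col, a number, a, a number) or a laminin alpha, beta or gamma chain (Lama, Lamb or Lamc and a number) and have at least 10 UMIs over both libraries. A UMI is a molecular tag that counts 1 captured transcript. Of 28692 genes, 56 symbols matched and 53 passed. Just outside the limit were Col10a1 with 3 UMIs and Col28a1 and Col17a1 with 7 each, and just inside it was Col6a6 with 17. Among the 53, 52 encode chains, 41 of collagens and 11 of laminins. The remaining symbol, Col4a3bp, encodes a ceramide transfer protein (RefSeq symbol Cert1) and is reported apart at the end.

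The study profiled single cells dissociated from the lateral hypothalamic area of C57BL/6 mice at postnatal day 30, with droplet capture and v2 3′ chemistry. All 5 animals were littermates. One library, labelled male, pooled 3 animals, and the other, labelled female, pooled 2. No animal was treated, and the label is what separates the libraries, with 1 library a label. The deposited matrices held 3439 and 3793 barcodes with 23151801 and 27437142 UMIs in the libraries labelled male and female. After filters on genes, mitochondrial share and doublets, 3186 and 3520 cells were kept, and 17 kept barcodes occurred in both libraries.

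The sex labels do not match the sex-linked genes in either library. In the library labelled male, Xist was counted 20641 times over 3190 of the deposited barcodes and Ddx3y 0 times, while the library labelled female had 30 Xist UMIs over 4 barcodes and 4524 Ddx3y UMIs. Libraries are therefore called by their labels throughout, and a direction between them is a direction between labels. Cell classes were compared with the library as a block, which takes out the mean difference between the libraries. The p-values therefore rest only on how class differences vary between 2 pools of littermates. That spread is shared over all classes of a fit and moderated across genes. The p-values do not measure the spread between animals, and Poisson and binomial intervals cover counting error only.

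Classes were built by clustering without the collagen and laminin genes, so that the members did not define the cells they are described in. The fibroblast-like class held 20 and 29 cells in the libraries labelled male and female, the mural-like class 8 and 22, and the endothelial-like class 72 and 66. Glial classes held 118 and 185 astrocyte-like, 71 and 39 microglia-like, 81 and 94 oligodendrocyte precursor-like, 74 and 105 newly formed oligodendrocyte-like and 609 and 595 mature oligodendrocyte-like cells. The neuron-like class held 2042 and 2270 cells. In each library 10 of 11 fibroblast markers were each found in at least 25% of fibroblast-like cells, against 2 of 12 mural and 2 of 10 endothelial markers. Astrocyte markers at that share were 4 of 10 in each library, and neuron markers 5 and 3 of 10. Mural-like cells had 9 of 12 mural, 2 of 11 fibroblast and 0 of 10 endothelial markers at that share, and were led by Acta2, Tagln and Myh11, genes of contractile smooth muscle. Endothelial-like cells had 10 of 10 endothelial, 1 of 12 mural and 0 of 11 fibroblast markers. A cluster of 39 and 50 cells led by Higd1b, Ndufa4l2 and Pdgfrb carried endothelial and mural markers together and stayed unnamed, so it is in no class.

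Collagens are triple-helical matrix proteins built from 3 alpha chains. Fibrillar collagens (types I, II, III, V and XI) form cables in connective tissue, type IV forms the sheet of basement membranes, type VI forms beaded filaments, and fibril-associated collagens such as types IX and XII sit on fibrils. Transmembrane collagens such as types XIII, XXIII and XXV stay in the cell membrane. Laminins join an alpha, a beta and a gamma chain into a cross-shaped trimer that starts basement membrane assembly. In the brain, fibroblasts of the leptomeninges and larger vessels make most fibrillar collagen, while endothelial cells, mural cells and astrocytes together lay down the vascular basement membrane.

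The summed level of the 52 chains was highest in fibroblast-like cells. Levels in CPM, a gene's UMIs scaled to the same total in every class, summed to 6936 (95% Poisson interval 6404 to 7501) and 9582 (9000 to 10191) in fibroblast-like cells of the libraries labelled male and female. Mural-like cells followed with 1584 and 3358 CPM, then endothelial-like cells with 1030 and 964 CPM and newly formed oligodendrocyte-like cells with 907 and 805 CPM. Precursor-like cells had 582 and 703 CPM, astrocyte-like cells 448 and 484, microglia-like cells 436 and 291, neuron-like cells 287 and 323, and mature oligodendrocyte-like cells 153 and 158. The 49 fibroblast-like cells held 10.0% of the chains' UMIs counted in named classes, against 0.421% of all UMIs of those classes. Neuron-like cells held 70.3% of the chains' UMIs and 80.7% of all UMIs on the same base. Unnamed clusters and removed barcodes are outside these shares.

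**Figure D1:**
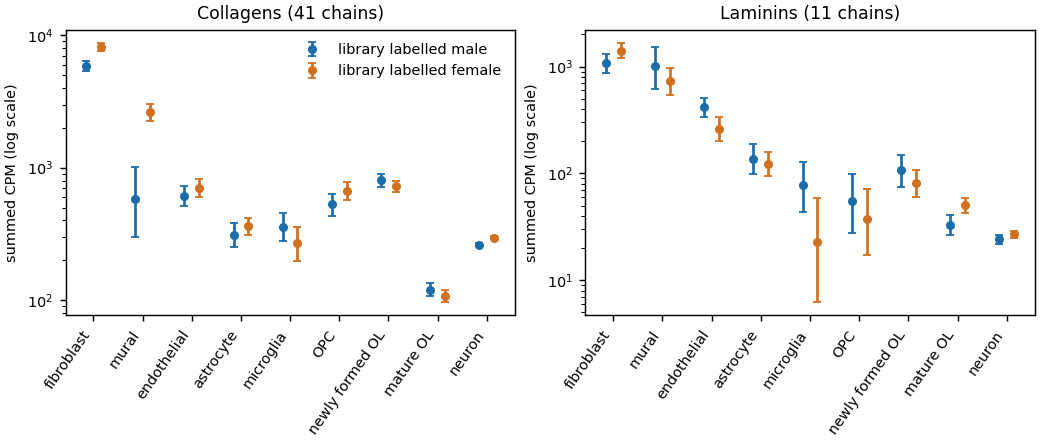
Summed level of the 41 collagen chains and of the 11 laminin chains (CPM, log scale) in each cell class, with 1 point per library and 95% Poisson intervals (OPC, oligodendrocyte precursor; OL, oligodendrocyte). Fibroblast-like cells stand highest for collagens (5852 and 8171 CPM in the libraries labelled male and female), and for laminins fibroblast-like cells (1084 and 1411 CPM) and mural-like cells (1008 and 738 CPM) lie closest.

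Within fibroblast-like cells the families were unequal. Fibrillar collagens summed to 3662 and 5643 CPM in the libraries labelled male and female, network-forming basement membrane collagens to 642 and 833, beaded-filament collagens to 564 and 426, and fibril-associated collagens to 277 and 360 CPM. Laminin gamma chains summed to 431 and 625 CPM, beta chains to 387 and 483, and alpha chains to 265 and 303 CPM. Endothelial-like cells had the reverse balance among collagens, with 543 and 590 CPM of basement membrane network chains and 26.1 and 29.7 CPM of fibrillar chains. Mural-like cells had 576 and 2620 CPM of collagens and 1008 and 738 CPM of laminins.

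By the class of highest mean CPM, among classes with at least 10 UMIs of the gene, 24 of 52 chains were highest in fibroblast-like cells (17 collagens, 7 laminins), 15 in neuron-like cells, 4 in endothelial-like cells, 4 in newly formed oligodendrocyte-like cells and 1 each in astrocyte-like, microglia-like, precursor-like and mature oligodendrocyte-like cells. At that limit no chain was highest in mural-like cells, and Col4a3 reached 10 UMIs in no class. The 0 for mural-like cells, a small class, depends on the limit. Without it, Lama4 had a higher mean in mural-like cells (102 CPM) than in fibroblast-like cells (52.9 CPM). Lama5 (78.1 CPM) and Col14a1 (52.7 CPM) were likewise higher there than in endothelial-like cells (40.9 and 25.8 CPM). The highest class was the same in both libraries for 30 of 52 chains: 21 of the 24 fibroblast chains, all 4 of the newly formed oligodendrocyte chains (Col9a1, Col9a3, Col20a1 and Col11a2) and 3 of the 15 neuronal chains. The neuronal count depends on the limit of 10 UMIs: without it, Col8a1 (45.8 CPM), Col8a2 (41.1 CPM) and Col22a1 had a higher mean in fibroblast-like cells on few UMIs than in neuron-like cells (4.10, 0.886 and 1.95 CPM). With every cell thinned to 2000 UMIs, Col1a2 was detected in 100% (95% exact interval 82.4 to 100) and 96.6% (82.2 to 99.9) of fibroblast-like cells, against 0.343% and 0.352% of neuron-like cells. Unthinned, Col1a2 was in 100% of fibroblast-like cells of each library and in 1.27% and 2.07% of neuron-like cells.

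**Figure D2:**
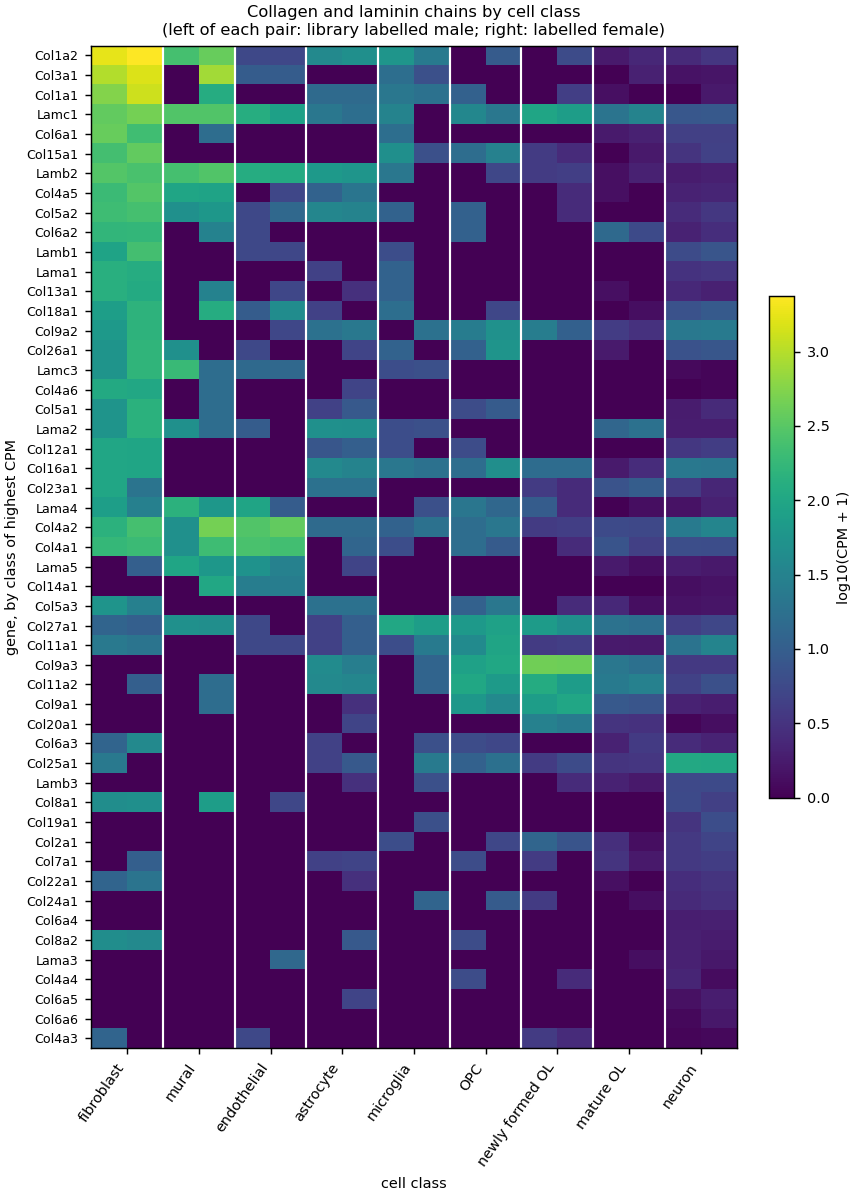
Levels of the chains except 1, as log10(CPM + 1), in 9 cell classes, with the library labelled male on the left of each pair of columns and the library labelled female on the right. Chains are grouped by the class of highest mean CPM among classes with at least 10 UMIs of the gene. The block of 24 chains placed with fibroblast-like cells is the largest. The type IX chains Col9a1 and Col9a3 stand out in newly formed oligodendrocyte-like cells.

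Fibroblast-like cells were compared with endothelial-like cells first, since both belong to the vessel wall and its coverings. Genes were tested in 1 edgeR quasi-likelihood fit over all class sums with the library as a block. Called means a Benjamini-Hochberg adjusted p below 0.05 over the 8668 genes tested. Of the 32 chains that passed the count filter, 23 were called higher in fibroblast-like cells and 0 lower, where 15.1% of all genes tested were called, 7.42% higher and 7.64% lower. Many of the 32 passed the filter only through fibroblast-like cells, so that count describes them and lends no support.

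The type I and III chains, the main fibrillar collagens of connective tissue, led the difference. Col1a2 (chromosome 6, 4504814 to 4541544, + strand, GRCm38) had 1770 and 2358 CPM in fibroblast-like cells of the libraries labelled male and female (160 and 249 UMIs), against 4.34 and 4.25 CPM in endothelial-like cells (1 and 1 UMI). The ratio was 486 (95% counting interval 134 to 4025, edgeR adjusted p = 2.57e-26). Col1a1 (chromosome 11, 94936224 to 94953042, + strand) had 564 and 1288 CPM in fibroblast-like cells, against 0 UMIs in endothelial-like cells of either library, which is at least 148-fold higher (edgeR adjusted p = 3.44e-16). For genes at 0 in a class, such a bound takes 3 UMIs over that class in both libraries as the floor. Col3a1 had 973 and 1553 CPM in fibroblast-like cells, against 8.69 and 8.49 CPM in endothelial-like cells (log2 fold change 7.14 ± 0.44 SE, edgeR adjusted p = 3.51e-19). No library of one class overlapped the other class for these 3 genes. Col1a1 and Col1a2 form 1 trimer, and their transcripts were found in the same cells: 16 of 20 and 26 of 29 fibroblast-like cells had UMIs of both, 4 and 3 had Col1a2 alone, and none had Col1a1 alone.

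The stretch just upstream of Col3a1 is shown because Col3a1 is the most abundant fibrillar chain of these cells for which a RefSeq promoter (GRCm38.p6) was at hand. It covers chr1:45311388-45311537 on the + strand, the 150 bases before the start, with the letters TATAAA in capitals.
Col3a1: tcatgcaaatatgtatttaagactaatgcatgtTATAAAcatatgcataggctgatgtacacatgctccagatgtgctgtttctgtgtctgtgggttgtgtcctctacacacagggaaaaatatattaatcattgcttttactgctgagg
A match of these letters is a description and not a tested site.

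The minor fibrillar, fibril-associated and beaded-filament chains were also higher in fibroblast-like cells. Col5a2, a type V chain that regulates fibril width, had 210 and 237 CPM in fibroblast-like cells, against 4.34 and 12.7 CPM in endothelial-like cells (log2 fold change 4.65 ± 0.74 SE, edgeR adjusted p = 1.95e-06). Its partner Col5a1 had 55.3 and 142 CPM against 0 UMIs, at least 15.8-fold higher (edgeR adjusted p = 7.67e-05). The type VI chain Col6a1 had 387 and 218 CPM against 0 UMIs, at least 45.9-fold higher (edgeR adjusted p = 6.12e-09). Col6a2 had 166 and 170 CPM against 4.34 and 0 CPM, a ratio of 78.4 (13.1 to 3189, edgeR adjusted p = 6.24e-06). The fibril-associated chains Col12a1 and Col16a1 each had 99.6 and 94.7 CPM against 0 UMIs, at least 15-fold higher (edgeR adjusted p = 7.21e-05 and 6.17e-06). Col15a1, a multiplexin that links fibrils to basement membranes, had 232 and 369 CPM against 0 UMIs, at least 47.5-fold higher (edgeR adjusted p = 9.63e-09). In each of these 7 genes both fibroblast-like sums lay above both endothelial-like sums. The genes were named because they were called, so this describes them and lends no support. The same holds wherever sums of called genes are said not to overlap.

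Among laminins, Lama1 and Lamb1, chains of the laminin-111 trimer of embryonic basement membranes, separated most. Lama1 had 133 and 123 CPM in fibroblast-like cells, against 0 UMIs in endothelial-like cells, at least 19.8-fold higher (edgeR adjusted p = 1.75e-05). Lamb1 had 88.5 and 227 CPM against 4.34 and 4.25 CPM, a ratio of 38.0 (9.70 to 327). Lamc1, the gamma chain of most laminins, had 365 and 464 CPM against 126 and 80.7 CPM (log2 fold change 1.96 ± 0.32 SE, edgeR adjusted p = 3.21e-06). Lamb2, the beta chain of vascular and neuromuscular laminins, had 299 and 256 CPM against 122 and 115 CPM (log2 fold change 1.18 ± 0.39 SE, edgeR adjusted p = 0.028). The Lamb2 call was lost with cells over 10% mitochondrial UMIs left out (log2 fold change 0.73, edgeR adjusted p = 0.48) and with cells thinned to 2000 UMIs (0.69, edgeR adjusted p = 0.525), and the Lamb1 call with DESeq2 (adjusted p = 0.611). Lama2 and Lamc3 were also called higher, Lamc3 not in thinned cells. Lama5, an alpha chain of mature endothelial basement membranes, had 0 and 9.47 CPM against 52.1 and 29.7 CPM (log2 fold change -3.02 ± 1.38 SE, edgeR adjusted p = 0.15), and Lama4 had 77.4 and 28.4 CPM against 91.2 and 8.49 CPM, both short of the threshold. The other chains called higher were Col4a5, Col4a6, Col8a1, Col9a2, Col13a1, Col18a1 and Col26a1. Of these Col18a1 and Col8a1 were not called in thinned cells, and Col4a6, Col8a1 and Col18a1 were not called with DESeq2.

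**Figure D3:**
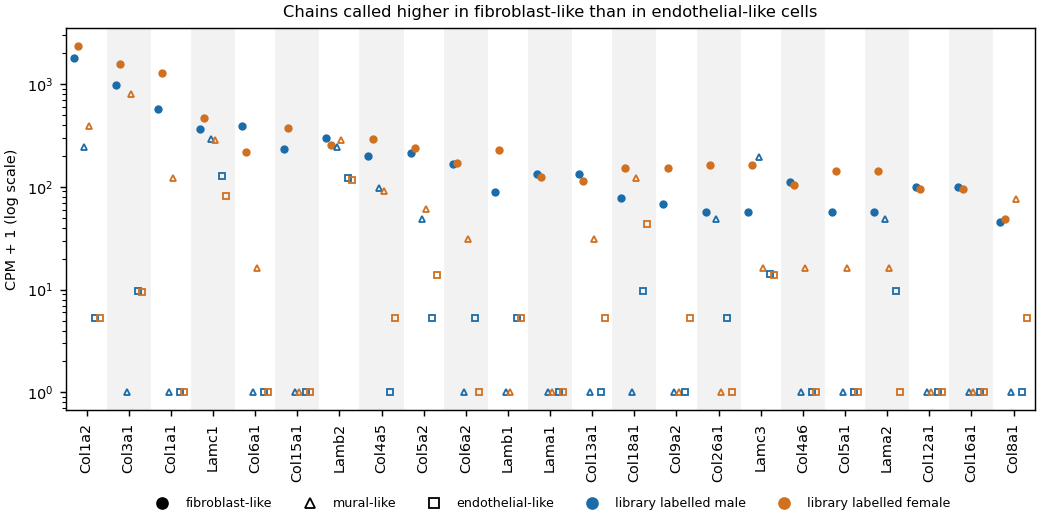
Levels (CPM + 1, log scale) of the 23 chains called higher in fibroblast-like than in endothelial-like cells, with fibroblast-like cells as filled circles, mural-like cells as triangles and endothelial-like cells as squares, coloured by library label. Chains at 0 UMIs in endothelial-like cells, such as Col1a1 and Col15a1, lie at the bottom of the axis, and Lamc1 and Lamb2 show the narrowest gaps.

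Genes that process, hold and remodel these chains were counted in the same comparison. Of all genes tested 7.42% were called higher and 7.64% lower, and the lists were not tested against them. Genes at 0 UMIs in endothelial-like cells may have passed the count filter through fibroblast-like cells, so the counts lend no support. Of 20 collagen-modifying enzymes and chaperones tested, 10 were called higher in fibroblast-like cells and 0 lower. Lox, which crosslinks collagen, had 122 and 123 CPM in fibroblast-like cells against 0 UMIs in endothelial-like cells (at least 19.0-fold higher, edgeR adjusted p = 4.16e-05). Pcolce, an enhancer of procollagen cleavage, had 343 and 294 CPM against 0 and 4.25 CPM (ratio 147, 25.5 to 5910). Of 15 other basement membrane proteins, 5 were higher and 4 lower. Fbln1, a fibulin, had 321 and 180 CPM against 0 UMIs (at least 38.0-fold higher). Agrn, the heparan sulfate proteoglycan agrin, had 22.1 and 0 CPM against 282 and 225 CPM (24.8-fold lower, 6.72 to 207), and Egfl7, a secreted endothelial matrix protein, had 0 and 28.4 CPM against 1725 and 1431 CPM (103-fold lower, 35.1 to 501). Of 20 receptors for collagens and laminins 5 were higher and 3 lower, with the laminin receptor subunit Itga6 lower (log2 fold change -3.96 ± 0.57 SE, edgeR adjusted p = 2.82e-07). Of 18 matrix proteases and inhibitors 8 were higher and 2 lower, with the inhibitor Timp2 at 431 and 407 CPM against 17.4 and 55.2 CPM.

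Mural-like cells differed from endothelial-like cells in few chains. Of the 32 tested, 4 were called higher in mural-like cells and 0 lower, where 8.74% of all genes tested were called, 3.54% higher and 5.2% lower. The endothelial-like sums are the same as above, so both comparisons share them. Col1a2 had 240 and 392 CPM in mural-like cells (5 and 26 UMIs), against 4.34 and 4.25 CPM in endothelial-like cells (ratio 82.7, 21.1 to 713, edgeR adjusted p = 5.2e-09). Col4a5, a type IV chain, had 96.0 and 90.4 CPM against 0 and 4.25 CPM (ratio 42.7, 5.73 to 1895, edgeR adjusted p = 0.00845). Col3a1 had 0 and 798 CPM against 8.69 and 8.49 CPM, and Col1a1 0 and 120 CPM against 0 UMIs. Both of these calls rested on 2 cells of the library labelled female, which held 49 of the 53 Col3a1 UMIs and all 8 Col1a1 UMIs of the class. Without those cells 2 chains were called, and Col3a1 had a log2 fold change of 2.12 with edgeR adjusted p = 0.337. DESeq2 called neither, and Col4a5 was not called in thinned cells. Fibroblast markers in mural-like cells summed to 384 and 1099 CPM, against 174 and 370 CPM in endothelial-like cells, and their part in the result was not tested.

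No laminin was called between mural-like and endothelial-like cells. Lamb2 had 240 and 286 CPM in mural-like cells against 122 and 115 CPM in endothelial-like cells (log2 fold change 0.94 ± 0.48 SE, edgeR adjusted p = 0.255), and Lamc1 288 and 286 CPM against 126 and 80.7 CPM (log2 fold change 1.2 ± 0.45 SE, edgeR adjusted p = 0.0904). Both mural-like sums lay above both endothelial-like sums for these genes without passing the test, at 8 and 22 cells. Of the 20 receptors, 7 were called higher in mural-like cells and 2 lower. Itga7, the laminin-binding integrin subunit of muscle, had 144 and 196 CPM against 0 and 4.25 CPM (ratio 85.4, 13.3 to 3581). Mcam, a laminin-binding adhesion molecule of the vessel wall, had 192 and 301 CPM against 8.69 and 12.7 CPM (log2 fold change 4.38 ± 0.67 SE, edgeR adjusted p = 1.67e-06). Itga6 had 0 UMIs in mural-like cells against 256 and 357 CPM in endothelial-like cells, at least 8.93-fold lower. Of the 20 enzymes 2 were higher and 0 lower, of the 15 basement membrane proteins 1 was higher and 4 lower, and of the 18 proteases and inhibitors 1 was higher and 2 lower.

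Fibroblast-like cells were then compared with mural-like cells. Of the 32 chains, 9 were called higher in fibroblast-like cells and 0 lower, where 4.75% of all genes tested were called, 2.69% higher and 2.07% lower. Many of the 32 passed the count filter only through fibroblast-like cells, so this count describes them and lends no support. Col1a1 showed a log2 fold change of 3.74 ± 0.53 SE (edgeR adjusted p = 6.34e-07), Col1a2 of 2.83 ± 0.26 SE (edgeR adjusted p = 3.12e-12) and Col3a1 of 1.46 ± 0.29 SE (edgeR adjusted p = 0.000558). The Col3a1 value became 4.97 without the 2 mural-like cells named above. Col15a1 was at least 8.90-fold higher (edgeR adjusted p = 0.000409) and Lamb1 at least 4.75-fold higher (edgeR adjusted p = 0.0061), both against 0 UMIs in mural-like cells. Col6a1 had 387 and 218 CPM in fibroblast-like cells against 0 and 15.1 CPM in mural-like cells (ratio 25.8, 4.45 to 1037). Lama1, Col9a2 and Col16a1 were also called higher. DESeq2 called 3 of the 32 chains, Col1a1 (adjusted p = 0.424), Col3a1 (0.84) and Lamb1 (0.728) not among them, and clustering at Leiden resolution 2 gave 17 calls. The laminins Lamb2 (log2 fold change 0.23, edgeR adjusted p = 0.907) and Lamc1 (0.76, edgeR adjusted p = 0.348) were not called. Of the 20 receptors 0 were higher in fibroblast-like cells and 3 lower, among them Bcam, a receptor of laminin alpha 5, with 22.1 and 37.9 CPM against 1008 and 602 CPM (log2 fold change -4.35 ± 0.48 SE, edgeR adjusted p = 6.72e-10). Of the enzymes 2 were higher and 1 lower, of the basement membrane proteins 5 and 1, and of the proteases and inhibitors 3 and 0.

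The type IV genes lie in head-to-head pairs, so they are given as pairs. Col4a1 and Col4a2 form the ubiquitous trimer of basement membranes. In endothelial-like cells Col4a1 had 252 and 225 CPM and Col4a2 287 and 361 CPM, and 23 of 72 and 28 of 66 cells held UMIs of both. In fibroblast-like cells Col4a1 had 177 and 199 CPM and Col4a2 144 and 237 CPM. Neither differed between fibroblast-like and endothelial-like cells past the threshold (Col4a1 log2 fold change -0.39 ± 0.37 SE, edgeR adjusted p = 0.584; Col4a2 -0.82 ± 0.30 SE, edgeR adjusted p = 0.0534). In neuron-like cells the pair was unequal, with 94 and 105 UMIs of Col4a1 and 406 and 664 UMIs of Col4a2. The 2 genes overlap on opposite strands by 22 bases at their starts, while the libraries used 3′ chemistry. Whether counting used strand was not stated in the sources used.

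The other pair, Col4a5 and Col4a6 on the X chromosome, followed fibroblast-like cells. Col4a5 had 199 and 294 CPM in fibroblast-like cells against 0 and 4.25 CPM in endothelial-like cells (ratio 116, 19.9 to 4690, edgeR adjusted p = 9.66e-08). Col4a6 had 111 and 104 CPM against 0 UMIs, at least 16.6-fold higher (edgeR adjusted p = 0.000124). In 6 fibroblast-like cells of each library both were found. Their starts in the GENCODE annotation lie 1309 bases apart. The other 2 type IV genes, Col4a3 and Col4a4, had few UMIs, with 24 of Col4a3 in all. Of those, 5 and 4 lay in the unnamed cluster led by Higd1b in the libraries labelled male and female.

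Because both members of each pair start close together, the sequences upstream of Col4a5 and Col4a6 and the shared stretch of Col4a1 and Col4a2 are shown, in RefSeq GRCm38.p6 coordinates. Capitals mark CCAAT in Col4a5, and GGGCGG, read as CCGCCC on the strand printed for Col4a6. They cover chrX:141475169-141475384 (+ strand), chrX:141474077-141474326 (− strand) and chr8:11312805-11312826 (+ strand).
Col4a5: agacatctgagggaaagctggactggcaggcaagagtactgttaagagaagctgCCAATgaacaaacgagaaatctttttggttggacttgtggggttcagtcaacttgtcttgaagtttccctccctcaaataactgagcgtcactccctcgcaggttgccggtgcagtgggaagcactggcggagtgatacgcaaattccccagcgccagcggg
Col4a6: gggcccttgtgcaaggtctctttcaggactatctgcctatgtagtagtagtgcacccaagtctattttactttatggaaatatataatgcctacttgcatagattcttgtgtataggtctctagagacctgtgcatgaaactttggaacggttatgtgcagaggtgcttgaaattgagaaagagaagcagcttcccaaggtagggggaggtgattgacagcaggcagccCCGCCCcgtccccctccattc
Col4a1 and Col4a2: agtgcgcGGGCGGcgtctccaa
RefSeq promoters were matched for 37 of 52 chains (41 entries). In the 250 bases upstream, on both strands, TATAAA was found in 7.32% of the members' entries and 12.4% of all 32851 entries, CCAAT in 31.7% and 33.8%, and GGGCGG in 58.5% and 32.7%. Among the 18 entries of chains highest in fibroblast-like cells the shares were 11.1%, 27.8% and 61.1%. The patterns can overlap at their end letters, and no binding was measured.

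Astrocyte-like cells carried a small set of laminin and collagen chains above the neuronal level. Of the 32 chains tested, 10 were called higher in astrocyte-like than in neuron-like cells and 2 lower, where 52.7% of all genes tested were called, 23.1% higher and 29.6% lower. The share called in the chains was thus below that of all genes. The count filter left out several chains with most of their UMIs in neuron-like cells, among them Col11a1, Col19a1, Lamb3 and Col2a1. The balance of higher and lower chains therefore lends no support. Lamb2 had 65.4 and 55.9 CPM in astrocyte-like cells against 0.810 and 0.987 CPM in neuron-like cells (log2 fold change 6.09 ± 0.46 SE, edgeR adjusted p = 2.74e-17). Lama2, a laminin alpha chain, had 48.2 and 46.3 CPM against 0.868 and 0.888 CPM (5.77 ± 0.54 SE, edgeR adjusted p = 1.43e-13). Lamc1, the gamma chain of most laminins, had 20.7 and 15.4 CPM against 7.35 and 7.70 CPM (1.31 ± 0.54 SE, edgeR adjusted p = 0.0359). The Lamc1 direction turned when cells over 10% mitochondrial UMIs were left out (-1.72). Both astrocyte-like sums lay above both neuron-like sums for these 3 chains.

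Several collagens were also higher in astrocyte-like cells. Col5a2 had 34.4 and 30.8 CPM against 1.62 and 2.52 CPM in neuron-like cells (log2 fold change 4.04 ± 0.58 SE, edgeR adjusted p = 3.11e-08), and Col9a3 had 41.3 and 27.0 CPM against 2.60 and 2.66 CPM (3.71 ± 0.45 SE, edgeR adjusted p = 5.77e-10). Col1a2 had 37.9 and 46.3 CPM against 1.5 and 2.37 CPM (edgeR adjusted p = 2.43e-13), and Col1a1 13.8 and 13.5 CPM against 0 and 0.691 CPM (5.09 ± 0.89 SE, edgeR adjusted p = 2.44e-06). Col1a1 and Col1a2 occurred together in no astrocyte-like cell, and Col3a1, Col15a1 and Col6a1 had 0 UMIs in both libraries there. The 11 fibroblast markers summed to 68.9 and 32.8 CPM in astrocyte-like cells, with 7 and 6 of them at 0, against 10.4 and 14.5 CPM in neuron-like cells, and their part in the type I result was not tested. Col11a2, Col4a5 and Col4a6 were also called higher, Col4a6 on 0 and 2 UMIs. Lower were Col25a1, a transmembrane collagen of neurons, with 3.44 and 7.71 CPM against 109 and 105 CPM (-3.98 ± 0.44 SE, edgeR adjusted p = 2.85e-11), and Lamb1, with 0 UMIs against 4.98 and 6.81 CPM, at least 1.61-fold lower (edgeR adjusted p = 0.0318). The Lamb1, Col1a1 and Col4a5 calls were lost with cells over 10% mitochondrial UMIs left out, and DESeq2 did not call Lamb1 or Col4a6.

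Of the partner genes, 9 of 20 enzymes and chaperones were higher in astrocyte-like than in neuron-like cells and 2 lower, 6 of 15 basement membrane proteins higher and 1 lower, 11 of 20 receptors higher and 2 lower, and 8 of 18 proteases and inhibitors higher and 4 lower. Of all genes tested 23.1% were higher and 29.6% lower, and the lists were not tested against them. Serpinh1, the collagen chaperone HSP47, had 193 and 191 CPM in astrocyte-like cells against 2.43 and 2.37 CPM in neuron-like cells (log2 fold change 6.41 ± 0.26 SE, edgeR adjusted p = 2.86e-29). Sparc, a collagen-binding matrix glycoprotein, had 2304 and 2829 CPM against 103 and 126 CPM. Mmp14, a membrane collagenase, had 145 and 114 CPM against 0.347 and 0.543 CPM (8.12 ± 0.53 SE, edgeR adjusted p = 8.78e-20). The median mitochondrial share was 13.1% and 14.2% in astrocyte-like cells, against 7.98% and 8.55% in neuron-like cells, and with cells over 10% left out 7 chains were called in place of 12.

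In oligodendrocyte precursor-like cells Col9a1 and Col9a3 stood above the neuronal level. Type IX collagen is a fibril-associated trimer of Col9a1, Col9a2 and Col9a3, best known from cartilage. In precursor-like cells Col9a3 had 85.3 and 100 CPM, against 2.60 and 2.66 CPM in neuron-like cells (log2 fold change 4.92 ± 0.39 SE, edgeR adjusted p = 2.02e-15). Col9a1 had 60.2 and 37.7 CPM against 1.10 and 0.888 CPM (5.33 ± 0.62 SE, edgeR adjusted p = 4.07e-10). Both precursor-like sums were above both neuron-like sums for each of these genes. Col9a2, with 25.1 and 50.2 CPM against 21.5 and 23.5 CPM, was not called. Of the 32 chains 8 were called higher in precursor-like cells and 1 lower, where 43% of all genes tested were called, 17.9% higher and 25.1% lower. These comparisons use the same neuron-like sums and the same count filter as the astrocyte-like ones. The balance of higher and lower chains thus lends no support here either.

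Other chains of precursor-like cells were of mixed kinds. Col11a2, a fibrillar type XI chain, had 100 and 67.0 CPM in precursor-like cells against 3.47 and 5.72 CPM in neuron-like cells (log2 fold change 3.94 ± 0.43 SE, edgeR adjusted p = 3.68e-11). Col27a1, a fibrillar chain, had 65.2 and 83.7 CPM against 3.18 and 4.24 CPM (4.11 ± 0.44 SE, edgeR adjusted p = 2.11e-11). Lama4 had 20.1 and 12.6 CPM against 0.463 and 1.04 CPM (4.02 ± 1.06 SE, edgeR adjusted p = 0.00163). Col15a1, Col26a1 and Lamc1 were also called higher, Col15a1 and Col26a1 not with DESeq2. Col25a1 had 10.0 and 16.7 CPM against 109 and 105 CPM (-3.16 ± 0.45 SE, edgeR adjusted p = 5.67e-08). Col11a1, the partner of Col11a2, did not pass the count filter and had 40.1 and 92.1 CPM in precursor-like cells against 18.4 and 32.3 CPM in neuron-like cells. Of the partner genes, 4 enzymes were higher and 0 lower, 3 basement membrane proteins higher and 1 lower, 10 receptors higher and 3 lower, and 9 proteases and inhibitors higher and 2 lower. Itga9, an integrin subunit that binds tenascin, had 110 and 83.7 CPM against 1.33 and 1.58 CPM (5.80 ± 0.62 SE, edgeR adjusted p = 1.8e-11).

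Col9a1 and Col9a3 were highest in newly formed oligodendrocyte-like cells, given here as levels since no comparison with them was planned. Col9a3 had 433 CPM (95% Poisson interval 367 to 509, 150 UMIs) and 421 CPM (371 to 475, 259 UMIs), and Col9a1 had 75.1 CPM (49.1 to 110) and 97.5 CPM (74.4 to 126). Col11a2 had 118 CPM (85.0 to 161) and 71.5 CPM (52.0 to 96.0), and Col20a1 28.9 CPM (13.9 to 53.1) and 22.8 CPM (12.4 to 38.2). Col9a3 thus stood above Col9a1 beyond counting error in both libraries, and 16 of 74 and 30 of 105 cells held UMIs of both while 41 and 59 held Col9a3 alone. At a fixed 2000 UMIs a cell, Col9a3 was found in 60.8% and 60.0% of newly formed oligodendrocyte-like cells, against 0.687% and 0.749% of neuron-like cells and 0% of fibroblast-like cells, and unthinned in 77.0% and 84.8% of the newly formed cells. Col9a3 overlaps Tcfl5 on the opposite strand, so reads of the pair could be mixed if strand was not used.

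**Figure D4:**
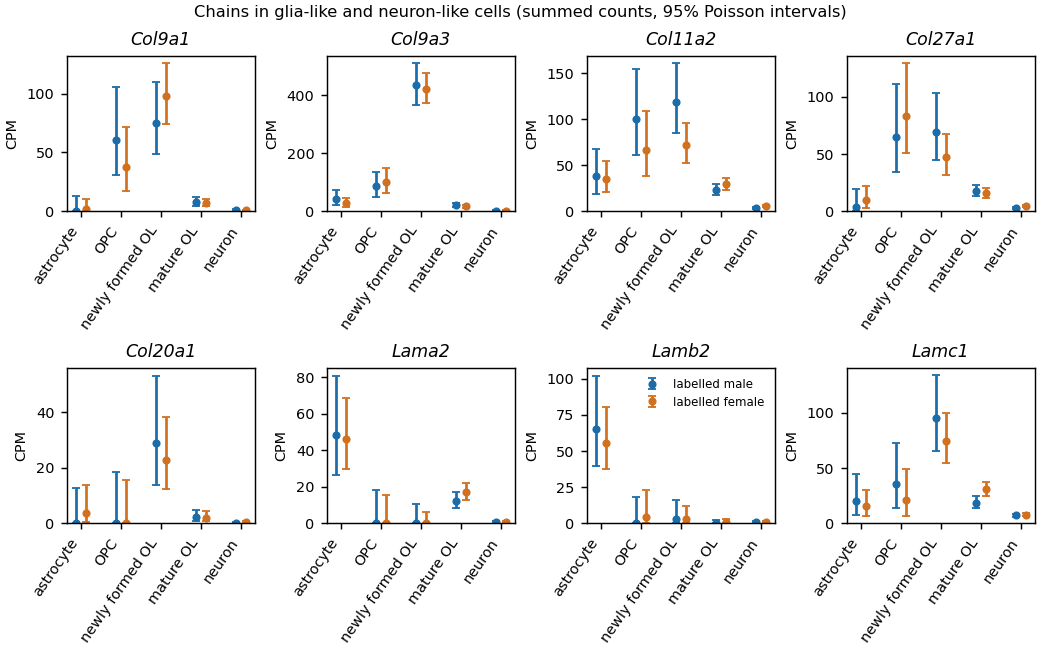
Levels (CPM, with 95% Poisson intervals) of 8 chains in astrocyte-like, precursor-like, newly formed and mature oligodendrocyte-like and neuron-like cells, with 1 point per library. Col9a3 stands at 433 and 421 CPM in newly formed oligodendrocyte-like cells, and Lama2 and Lamb2 are highest in astrocyte-like cells among these classes.

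Precursor-like cells were also compared with mature oligodendrocyte-like cells, the start and end of the lineage. Of the 32 chains 11 were called higher in precursor-like cells and 1 lower, where 37.5% of all genes tested were called, 18.9% higher and 18.5% lower. The same count filter chose these 32 chains, so the balance of higher and lower lends no support. Col9a3 had 85.3 and 100 CPM in precursor-like cells against 21.0 and 16.6 CPM in mature cells (log2 fold change 1.58 ± 0.33 SE, edgeR adjusted p = 7.33e-05). Col9a2 had 25.1 and 50.2 CPM against 2.94 and 2.03 CPM (3.20 ± 0.65 SE, edgeR adjusted p = 5.73e-05), and Col9a1 60.2 and 37.7 CPM against 7.73 and 6.77 CPM (1.99 ± 0.55 SE, edgeR adjusted p = 0.0031). Col26a1 had 10.0 and 54.4 CPM against 0.736 and 0 CPM (ratio 97.1, 22.6 to 875, edgeR adjusted p = 9.21e-06). Col16a1 had 15.1 and 46.0 CPM against 0.736 and 1.69 CPM (3.91 ± 0.74 SE, edgeR adjusted p = 1.69e-05). Lama4, Col15a1, Col27a1 and Col11a2 were also higher, as were Col5a1 and Col5a2 on 3 and 2 UMIs over both libraries. Lama2 was the chain called lower, with 0 UMIs in precursor-like cells against 12.1 and 16.9 CPM in mature cells (33 and 50 UMIs), at least 2.14-fold lower (edgeR adjusted p = 0.00227).

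Among the partner genes of that comparison, 3 enzymes and chaperones were higher in precursor-like cells and 6 lower, 2 basement membrane proteins higher and 1 lower, 6 receptors higher and 3 lower, and 8 proteases and inhibitors higher and 4 lower. Itgb4, the integrin subunit that binds laminins in hemidesmosomes, had 0 UMIs in precursor-like cells against 85.0 and 94.1 CPM in mature cells, at least 13.1-fold lower (edgeR adjusted p = 2.33e-11). Sdc3, a heparan sulfate proteoglycan, had 642 and 666 CPM against 16.5 and 17.9 CPM (log2 fold change 4.50 ± 0.25 SE, edgeR adjusted p = 9.25e-22). With cells over 10% mitochondrial UMIs left out, 6 chains were called in place of 12, and Col9a2 (edgeR adjusted p = 0.0613), Col5a2 and Col11a2 were among those lost.

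In microglia-like cells the chain with most UMIs was Col27a1, with 104 CPM (95% Poisson interval 63.4 to 160) and 74.1 CPM (39.4 to 127) in the libraries labelled male and female. Col1a2 followed with 11 and 4 UMIs, but all 11 in the library labelled male lay in 1 cell, which also held all 4 Col1a1 UMIs of that class and library. In mature oligodendrocyte-like cells the chains with most UMIs were Col11a2, at 23.5 and 29.5 CPM, and Lamc1, at 18.8 and 30.8 CPM.

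In neurons Col25a1 was the chain with most UMIs. Col25a1, a transmembrane collagen whose shed form is known as the amyloid plaque component CLAC, had 4211 UMIs in all, 99.2% of those in named classes in neuron-like cells, at 109 and 105 CPM. At 2000 UMIs a cell it was found in 15.7% and 15.8% of neuron-like cells (34.8% and 34.7% unthinned), against 0% of endothelial-like cells. Col4a2 followed with 23.5 and 32.8 CPM, then Col11a1 with 18.4 and 32.3 CPM and Col9a2 with 21.5 and 23.5 CPM. Col16a1 had 366 and 405 UMIs there. Col19a1 had 99.3% of its named-class UMIs in neuron-like cells, and Col6a4 and Col6a6 had 100%, on 38 and 17 UMIs in all. Col9a2 and Col16a1 were higher in CPM in fibroblast-like cells, yet 90.6% and 89.8% of their named-class UMIs lay in neuron-like cells.

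Neurons were divided into 4 gates. Hcrt-high neurons (83 and 83 cells in the libraries labelled male and female) and Pmch-high neurons (85 and 61) had at least 0.3% of their UMIs from the hypocretin or the melanin-concentrating hormone precursor gene. Inhibitory neurons (984 and 1108) had the GABA transporter gene Slc32a1 without the glutamate transporter gene Slc17a6, and other excitatory neurons (601 and 690) had Slc17a6 without Slc32a1. The remaining 289 and 328 neurons were in no gate. All comparisons below share the other excitatory neurons. The second fit, over the gates, tested 12266 genes and 22 chains.

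Col25a1 was the chain called higher in inhibitory neurons, with 148 and 142 CPM against 79.8 and 70.9 CPM in other excitatory neurons (1171 and 1342 UMIs against 390 and 414, log2 fold change 0.95 ± 0.08 SE, edgeR adjusted p = 2.31e-09). Of the 22 chains 1 was called higher and 5 lower, where 7.73% of all genes tested were called, 3.67% higher and 4.06% lower. Col18a1, the precursor of endostatin, had 1.14 and 1.48 CPM in inhibitory neurons against 7.78 and 10.4 CPM (-2.77 ± 0.30 SE, edgeR adjusted p = 2.05e-07). Col12a1 had 1.01 and 0.954 CPM against 6.55 and 7.19 CPM (-2.78 ± 0.40 SE, edgeR adjusted p = 2.06e-05), and Col27a1 1.90 and 1.27 CPM against 5.12 and 7.88 CPM (-2.05 ± 0.37 SE, edgeR adjusted p = 0.000403). Col22a1 and Col9a3 were also lower. DESeq2 called Col25a1 higher and Col18a1 lower and none of the other 4. The fit on cells thinned to 2000 UMIs called the same chains, and the other 4 had no test there. In each of the first 4 genes the gates did not overlap between libraries. Of the partner genes, 0 enzymes were higher and 3 lower, 1 basement membrane protein higher and 3 lower, 0 receptors higher and 3 lower, and 0 proteases and inhibitors higher and 2 lower.

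Hcrt-high neurons were higher in Lamb1, Col18a1 and Col22a1. Lamb1 had 21.1 and 43.5 CPM in Hcrt-high neurons against 5.12 and 5.82 CPM in other excitatory neurons (24 and 59 UMIs against 25 and 34, log2 fold change 2.83 ± 0.29 SE, edgeR adjusted p = 1.39e-08). Col18a1 had 28.9 and 48.0 CPM against 7.78 and 10.4 CPM (2.33 ± 0.23 SE, edgeR adjusted p = 9.14e-09). Col22a1, a collagen of tissue junctions, had 7.90 and 15.5 CPM against 2.25 and 2.23 CPM (2.65 ± 0.45 SE, edgeR adjusted p = 3.58e-05). Both Hcrt-high sums were above both other sums for these 3 genes. Of the 22 chains 3 were called higher and 12 lower, where 40.7% of all genes tested were called, 21.5% higher and 19.2% lower. Median depth was 16101 and 18593 UMIs a cell in Hcrt-high neurons, against 7811 and 8097 in other excitatory neurons. At 2000 UMIs a cell 3 chains stayed called: Lamb1 (log2 fold change 3.21), Col18a1 (2.39) and Col11a1 (-3.47). Col9a2, Col16a1 and Col4a2 were not called there, and the other called chains had no test in thinned cells.

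The chains called lower in Hcrt-high neurons were 11 of the 19 collagens and 1 of the 3 laminins tested. Col11a1 had 1.75 and 4.43 CPM against 19.6 and 44.0 CPM in other excitatory neurons (log2 fold change -3.08 ± 0.40 SE, edgeR adjusted p = 6.32e-07), and Col9a2 had 1.75 and 2.21 CPM against 22.5 and 27.9 CPM (-3.39 ± 0.42 SE, edgeR adjusted p = 3.34e-07). Col16a1 had 6.14 and 4.43 CPM against 31.7 and 23.3 CPM (-2.12 ± 0.35 SE, edgeR adjusted p = 2.42e-05), and Col4a2 had 7.02 and 12.5 CPM against 21.1 and 38.2 CPM (-1.34 ± 0.31 SE, edgeR adjusted p = 0.00101). Lamb3, a chain of epithelial laminin-332, had 0 UMIs against 7.57 and 5.82 CPM, at least 5.51-fold lower (edgeR adjusted p = 0.00055). Lamb3 overlaps another gene on the same strand, so its reads are uncertain. Col9a3, Col8a1 and Col6a1 had 0 UMIs in Hcrt-high neurons and were at least 3.72-fold, 3.57-fold and 2.40-fold lower. Col27a1 (16.5-fold lower, 2.87 to 662) and Col19a1 (10.9-fold lower, 1.87 to 441) each had 1 UMI there. Col12a1 and Col26a1 were also lower.

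In Pmch-high neurons Col8a1, Col2a1 and Col25a1 were called higher. Median depth was 14237 and 12947 UMIs a cell in Pmch-high neurons, against 7811 and 8097 in other excitatory neurons. Col8a1, a short-chain network collagen, had 17.4 and 15.1 CPM in Pmch-high neurons against 4.91 and 3.77 CPM in other excitatory neurons (log2 fold change 2.16 ± 0.35 SE, edgeR adjusted p = 2.38e-05). Col2a1, the cartilage fibrillar chain, had 9.07 and 6.59 CPM against 3.07 and 4.97 CPM (1.30 ± 0.46 SE, edgeR adjusted p = 0.0296). Col25a1 was called higher at 78.1 and 88.5 CPM against 79.8 and 70.9 CPM (0.40 ± 0.14 SE, edgeR adjusted p = 0.0266), but the gates overlapped, and by CPM alone the library labelled male gave a log2 fold of -0.03 and the library labelled female 0.33. Of the 22 chains 3 were called higher and 10 lower, where 36.2% of all genes tested were called, 19.2% higher and 17% lower. Lamb1 had 1 and 0 UMIs against 25 and 34, 13.7-fold lower (2.37 to 551, edgeR adjusted p = 0.00946). Col16a1 had 2.09 and 2.83 CPM against 31.7 and 23.3 CPM (-3.23 ± 0.43 SE, edgeR adjusted p = 1.28e-06), and Col11a1 2.79 and 4.71 CPM against 19.6 and 44.0 CPM (-2.82 ± 0.39 SE, edgeR adjusted p = 2.28e-06). Col6a1, Col12a1, Col27a1, Col19a1, Col26a1, Col4a2 and Col9a2 were also lower. At 2000 UMIs a cell Col11a1 alone stayed called (-3.23). Col16a1, Col25a1, Col4a2, Col9a2 and Lamb1 were not called there, and the other called chains had no test in thinned cells. DESeq2 called 1 chain higher and 3 lower.

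**Figure D5:**
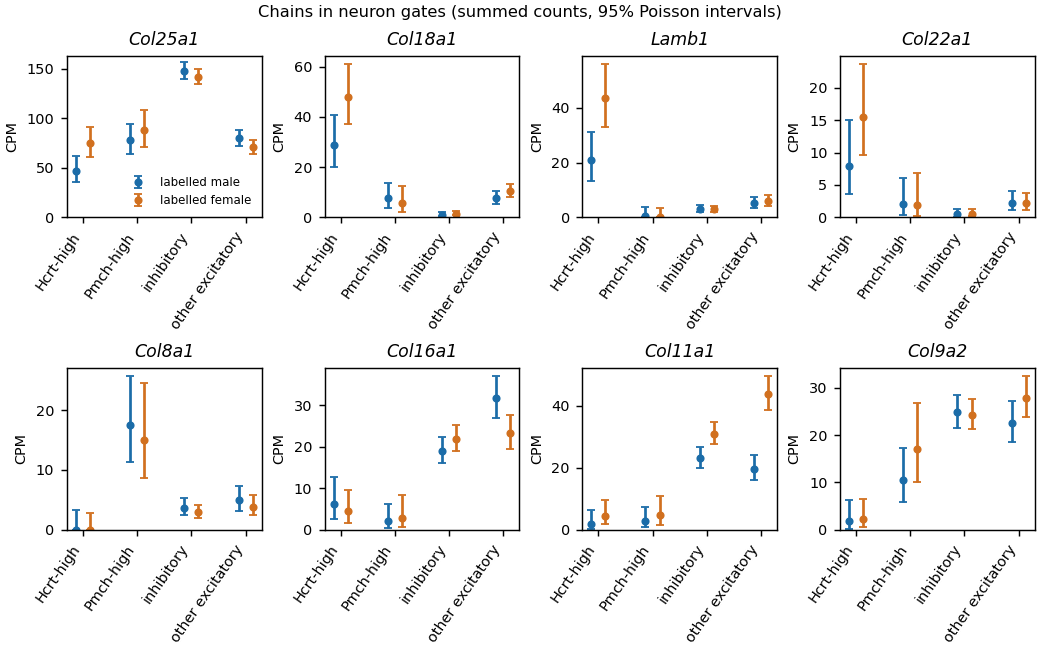
Levels (CPM, with 95% Poisson intervals) of 8 chains in Hcrt-high, Pmch-high, inhibitory and other excitatory neurons, with 1 point per library. Col18a1 and Lamb1 are highest in Hcrt-high neurons, Col8a1 in Pmch-high neurons and Col25a1 in inhibitory neurons.

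Among receptors for these matrix chains, the integrin beta 1 gene Itgb1, the common partner of collagen and laminin receptors, had 139 and 162 CPM in Hcrt-high neurons against 24.8 and 23.1 CPM in other excitatory neurons (log2 fold change 2.92 ± 0.12 SE, edgeR adjusted p = 2.73e-16). It had 109 and 118 CPM in Pmch-high neurons (2.51 ± 0.13 SE, edgeR adjusted p = 3.89e-14). Bcam had 69.0 and 69.7 CPM in Pmch-high neurons against 18.4 and 15.9 CPM (2.26 ± 0.17 SE, edgeR adjusted p = 3.42e-11). Of 16 receptors tested, 5 were higher and 4 lower in Hcrt-high neurons (40.7% of all genes tested were called), and 8 higher and 1 lower in Pmch-high neurons (36.2% of all genes). The lists were not tested against other genes. Of 22 enzymes and chaperones, 9 were higher and 3 lower in Hcrt-high neurons, and 5 higher and 4 lower in Pmch-high neurons. P4hb, the beta subunit of prolyl 4-hydroxylase, was higher in both, by 1.08 ± 0.10 SE and 1.04 ± 0.11 SE on the log2 scale. Of 10 basement membrane proteins 2 were higher and 5 lower in Hcrt-high neurons and 2 higher and 3 lower in Pmch-high neurons. Of 17 proteases and inhibitors, 3 were higher and 6 lower in Hcrt-high neurons and 2 higher and 4 lower in Pmch-high neurons, with Serpine2 lower in both (-1.86 ± 0.17 SE and -2.03 ± 0.18 SE).

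Not every chain entered the class comparisons. In the fit over classes 20 of 52 chains did not pass the count filter, among them Col2a1, Col4a3, Col4a4, Col5a3, Col6a3, Col6a4, Col6a5, Col6a6, Col7a1, Col8a2, Col11a1, Col14a1, Col19a1, Col20a1, Col22a1, Col23a1, Col24a1, Lama3 and Lamb3. Col11a1 was among them with 1116 UMIs in all, 94.7% of those in named classes in neuron-like cells. Of the 9 chains tested but not called between fibroblast-like and endothelial-like cells, Col9a1, Col9a3, Col11a2, Col25a1 and Col27a1 belong to the glial and neuronal groups above, and the others are Col4a1, Col4a2, Lama4 and Lama5. Col14a1, a fibril-associated chain, was highest in endothelial-like cells among classes with 10 UMIs, at 26.1 and 25.5 CPM, and had 0 UMIs in fibroblast-like cells. Col5a3 had 17.2 and 17.3 CPM in astrocyte-like cells.

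Between labels, with 1 library each, no test was possible. Of 80 chain and class pairs with at least 30 UMIs, 7 had a ratio past 2-fold with a counting interval that excluded 1, and 29 of the 80 ratios of the library labelled male over the library labelled female were above 1. In cells thinned to 2000 UMIs 4 of 37 pairs met that rule and 13 ratios were above 1. In fibroblast-like cells Col1a1 had a ratio of 0.438 (0.311 to 0.609) and Lamb1 of 0.389 (0.151 to 0.896). In mural-like cells Col3a1 had 0 UMIs in the library labelled male and 53 in the library labelled female, and Col4a2 had 1 and 31 UMIs. In mature oligodendrocyte-like cells Col6a2 had 36 and 14 UMIs (ratio 2.79, 1.47 to 5.61). In neuron-like cells Col19a1 had 39 and 108 UMIs (0.424, 0.286 to 0.616) and Col23a1 49 and 27 UMIs (2.13, 1.30 to 3.54). The vascular classes differ in size between the libraries, and fewer transcripts a cell and a different make-up of the class cannot be told apart.

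Col4a3bp, which shares the symbol pattern but encodes a lipid transfer protein, did not follow the chains. It had 3136 UMIs in all, at 69.3 and 70.8 CPM in neuron-like cells. In fibroblast-like cells it had 44.2 and 37.9 CPM, against 148 and 136 CPM in endothelial-like cells (log2 fold change -1.85 ± 0.49 SE, edgeR adjusted p = 0.00444).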

How the data were processed

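Single-cell transcript counts were measured in 2 droplet libraries of the mouse lateral hypothalamic area. The authors deposited whole-number UMI counts per gene and barcode. Cell Ranger 2.2.0 and the build GRCm38 (mm10) are named in the submitters' processing notes, while the sources used here state neither the annotation release nor the cell calling nor the use of strand. Total counts per library ranged from 23151801 to 27437142, with medians of 5718 and 6289 UMIs a barcode. Free RNA was not estimated or removed.

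Cells with under 500 genes or over 20% mitochondrial UMIs were removed (163 in each library), then the barcodes with the highest Scrublet scores at a rate of 0.8% per 1000 barcodes (90 and 110). Clustering (scanpy 1.11.5, 2000 variable genes, 30 components, 15 neighbours, Leiden resolution 1) left out the members, the partner genes, mitochondrial and sex-linked genes. A class was named from at least 3 markers found in at least 25% of cells or among the 10 leading genes. The second clustering of vascular cells and the removal of hemoglobin genes from the leading genes were chosen after seeing the clusters. Members and lists were chosen with earlier results of these data known.

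Counts were summed per class and library and tested with edgeR 4.0.16 (R 4.3.3): filterByExpr, TMM, quasi-likelihood, library as a block, 2-sided, Benjamini-Hochberg over all genes tested. The fit was tested on simulated data. Named with statistics were at most 12 called members in each direction, and of each partner list up to 4 called genes with at least 50 CPM; some of these are given as counts only. Intervals of ratios and levels are exact at 95%. Alternatives were DESeq2 1.42.0, another scaling, no filter, no block, a fit on the compared groups alone, each library left out, other filters on cells, thinning to 2000 UMIs and another resolution. Promoters come from RefSeq tables. 1 sparse chain, kept in all counts, is not reported here by name.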

Additional observations from a re-analysis of the deposited data

Results flagged for a closer look

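Col25a1 between Pmch-high and other excitatory neurons moved in opposite directions in the libraries, by -0.03 in the library labelled male and 0.33 in the library labelled female on the log2 scale. The difference between the libraries was not tested.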

How the results depend on the processing

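The count of chains called between fibroblast-like and endothelial-like cells (23) lay between 16 and 27 under every alternative run, and that between precursor-like and neuron-like cells (9) between 8 and 11. Mural-like against endothelial-like cells (4) gave 2 with DESeq2, 1 in a fit on these classes alone, 2 without doublet removal and 2 without the mural-like cells with over 20 Col3a1 UMIs, an alternative chosen after seeing the data. Fibroblast-like against mural-like cells (9) gave 3 with DESeq2 and 17 at Leiden resolution 2. With at most 10% mitochondrial UMIs, astrocyte-like against neuron-like cells (12) gave 7 and precursor-like against mature oligodendrocyte-like cells (12) gave 6, and no mural-like class was named there. For inhibitory neurons (6) DESeq2 gave 2, a fit on these gates alone 13 and thinned cells 2. For Hcrt-high neurons (15) thinned cells gave 3, and for Pmch-high neurons (13) DESeq2 gave 4 and thinned cells 1. Over all genes DESeq2 called 91 higher and 139 lower of 15092 for inhibitory neurons, against 450 and 498 of 12266 with edgeR. For Pmch-high neurons it called 1698 and 1139 of 13605, against 2357 and 2089 of 12266. Fibroblast-like against mural-like cells gave 123 and 159 of 10304, against 233 and 179 of 8668. Mural-like against endothelial-like cells gave 343 and 245 of 11855, against 307 and 451 of 8668. All-gene counts under the other alternatives are not given here. Of the 103 called changes of all comparisons, 75 had a test in thinned cells, so lower counts there mix lost calls with chains not tested. Between labels (7) thinned cells gave 4. Col1a1 in mural-like against endothelial-like cells turned to -0.18 without the cells named above, -5.82 without doublet removal and -0.28 at resolution 2. Lamc1 in astrocyte-like cells turned to -1.72 at 10% mitochondrial UMIs, and Col25a1 in Pmch-high neurons to -0.027 without the library labelled female, against 0.33 without the library labelled male. The cause was not tested. With no replicate block for the library, the 9 comparisons called 23, 4, 10, 13, 9, 11, 5, 13 and 9 chains, in the order of the report. Leaving out 1 library leaves no residual among samples, so those fits gave values and no calls; without the library labelled male 49 of 103 called log2 fold changes moved by more than the spread between libraries and none turned, and without the library labelled female 62 moved and Col25a1 turned, as above. Depth limits the chains with few UMIs in classes of under 50 cells.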

Other observations

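The unnamed vascular cells carried basement membrane chains. In the cluster led by Higd1b, Ndufa4l2 and Pdgfrb (39 and 50 cells in the libraries labelled male and female), Col4a1 had 413 and 396 CPM, Col4a2 390 and 391 CPM, and Lamc1 293 and 279 CPM. Col1a2 had 91.9 and 126 CPM there. Another unnamed cluster, led by Rgs5 (12 and 16 cells), had 383 and 520 CPM of Col4a1 and 423 and 549 CPM of Col4a2. In the one led by Eln and Vtn (9 and 14 cells), Col1a2 had 367 and 219 CPM and Col3a1 202 and 196 CPM. That cluster had 10 of 10 neuron markers, each in at least 25% of its cells in both libraries. They summed to 25265 and 28173 CPM, against 22987 and 25100 CPM in neuron-like cells. It had 8 and 9 of 12 mural and 10 and 1 of 10 endothelial markers at that share. All of these unnamed cells carry markers of more than 1 class and enter no comparison.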
